A study of Mus musculus with 24 samples.

Results

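The 9 genes described here encode the lysine acetyltransferases of the KAT3, GCN5/PCAF and MYST families: Crebbp and Ep300 (KAT3), Kat2a and Kat2b (GCN5 and PCAF), and Kat5, Kat6a, Kat6b, Kat7 and Kat8 (MYST). They were chosen by name among the 55471 genes of a count table from mouse hippocampus, by family and not by a threshold on a measured value, although earlier results of these data were known when they were chosen. The comparison asked whether the transcript of another acetyltransferase was higher after the loss of CBP, the product of Crebbp, and whether housing changed these transcripts. RNA was sequenced from 12 female C57BL/6 mice (C57BL/6J in the study's methods) aged 3 to 6 months, with 3 mice in each of 4 groups. These were control littermates in standard cages (SC), CBP-ifKOs in SC, control littermates in an enriched environment (EE) and CBP-ifKOs in EE, and the mice of a group are numbered 1 to 3. EE lasted about 1 month, in large boxes with running wheels and toys. In CBP-ifKOs, floxed Crebbp is recombined by Camk2a-creERT2, a tamoxifen-inducible Cre of excitatory forebrain neurons. Controls lacked the Cre, and all 4 groups had received tamoxifen in 5 administrations at 20 mg/mL. Interneurons, glia and vascular cells keep intact Crebbp. The recombined allele still gives a truncated protein without acetyltransferase activity, and reads from its transcript are counted as Crebbp. In bulk tissue, fewer cells of a type and less RNA per cell cannot be told apart.

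Lysine acetyltransferases transfer an acetyl group from acetyl-CoA to lysines of histones and other proteins, and acetylated histones mark active promoters and enhancers. CBP and p300 (Ep300) are large, closely related coactivators that CREB and many other transcription factors recruit, and CBP is known in the hippocampus for its part in activity-driven transcription and memory. GCN5 and PCAF are alternative catalytic subunits of the SAGA and ATAC complexes, whereas the MYST enzymes TIP60 (Kat5), MOZ (Kat6a), MORF (Kat6b), HBO1 (Kat7) and MOF (Kat8) work within larger complexes, some of whose subunits are shared between enzymes.

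These families hold close paralogs, so the following windows are shown to make visible how much of a 50-base read, the length sequenced here, can be shared. They are read 5′ to 3′ on the coding strand from GENCODE M21 transcripts of GRCm38, and capitals mark the longest stretch identical in both coding sequences of a pair.
Crebbp: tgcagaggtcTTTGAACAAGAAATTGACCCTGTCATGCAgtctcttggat
Ep300: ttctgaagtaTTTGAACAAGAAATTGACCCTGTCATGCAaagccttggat
Kat2a: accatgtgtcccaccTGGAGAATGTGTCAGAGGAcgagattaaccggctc
Kat2b: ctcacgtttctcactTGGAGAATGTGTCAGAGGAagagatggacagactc
Kat6a: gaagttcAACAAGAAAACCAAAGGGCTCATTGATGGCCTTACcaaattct
Kat6b: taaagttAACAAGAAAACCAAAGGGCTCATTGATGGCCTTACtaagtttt
The Crebbp window lies at chr16:4108053-4108102 (minus strand) and the Ep300 window at chr15:81631787-81631836 (plus strand), each in exon 18 of 31. Their identical stretch is 29 bases long and the windows differ at 8 positions. The Kat2a window lies at chr11:100711426-100711475 (minus strand) and the Kat2b window at chr17:53624355-53624404 (plus strand), each in exon 3 of 18, with 19 identical bases and 11 differing positions. Kat6a and Kat6b share 35 bases, at chr8:22911813-22911862 (plus strand, exon 8 of 18) and chr14:21625046-21625095 (plus strand, exon 7 of 17), and differ at 7 positions. No stretch of 50 bases was identical between any pair of the 9 genes. Of the 50-base stretches of Kat5, 9.83% also occur in Rnaseh2c, which overlaps 426 of its exon bases on the opposite strand, and 7.28% of those of Kat2b also occur in the pseudogene Kat2b-ps. Kat8 shares 122 exon bases with Prss8 on the opposite strand. Whether the counting used strand is not given in the sources used here, so the values of Kat5 and Kat8 are uncertain to that extent, as are those of Kat2b through its pseudogene. On GRCm38 Crebbp spans chr16:4081328-4213997 (minus strand), Ep300 chr15:81585351-81652077 (plus strand) and Kat2b chr17:53566861-53672720 (plus strand), and all 9 genes are annotated as protein-coding.

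The control libraries held 26874015 to 27971488 counts and the CBP-ifKO libraries 28582210 to 37448388, and all 9 genes passed the filter on low counts in every comparison. No nonzero count of the CBP-ifKO libraries was odd (0 of 148570), against 86334 of 158233 in the control libraries, and whether reads of the CBP-ifKO mice were counted more than once is not given in the sources used here. Halved, the CBP-ifKO totals would be 14291105 to 18724194, below every control library, so which genotype was sequenced more deeply is uncertain. The calls and log2 fold changes, but not the marker sums, the shares without overlap or the correlations, were also computed with the CBP-ifKO counts halved. Camk2a, a defining marker of excitatory neurons, lay between 3665 and 4343 normalized CPM (CPM, counts relative to the library total, after TMM scaling) and Slc17a7 between 1140 and 1359. The summed level of 6 excitatory markers, most of it Camk2a and Slc17a7, overlapped between genotypes in both housings, but 2 of the 6 fell over both housings, Wfs1 (log2 fold change -0.86, edgeR adjusted p = 1.62e-05) and Neurod6 (-0.17, adjusted p = 0.0129). The sum of 6 astrocyte markers was 1510 to 1692 normalized CPM in controls against 1452 to 1475 in CBP-ifKOs in SC, and 1473 to 1522 against 1313 to 1387 in EE. The sum of 5 microglial markers was 229 to 233 against 204 to 226 in SC and 215 to 234 against 195 to 202 in EE, and that of 6 interneuron markers was 851 to 917 against 795 to 832 and 870 to 946 against 820 to 855. The sum of 4 striatal markers was 36.2 to 41.4 against 30.8 to 33.3 in SC and 38.5 to 51.8 against 31.0 to 33.5 in EE. In SC alone the genotypes were also separate for 2 markers of oligodendrocyte precursors (77.9 to 91.1 against 58.1 to 68.1) and 3 of endothelial cells (124 to 133 against 107 to 121), and for 6 of the choroid plexus (45.5 to 53.7 against 34.9 to 38.7), of which Ttr was called in SC (log2 fold change -1.70, edgeR adjusted p = 2.20e-05), whereas 5 oligodendrocyte markers overlapped in both housings. Control mouse 1 in EE had 1235 normalized CPM over the choroid plexus markers, against at most 61.4 in the other 11 libraries. Among the markers of the lists whose sums were lower, those called over both housings by edgeR were Sox9 (-0.27, adjusted p = 0.00389) and Slc1a3 (-0.21, adjusted p = 0.0173) of astrocytes, Cx3cr1 (-0.17) and Csf1r (-0.12) of microglia, Cspg4 (-0.33) and Pdgfra (-0.26) of oligodendrocyte precursors, Ppp1r1b (-0.43, adjusted p = 0.00210) of striatal neurons and Ttr, whose value over both housings includes this control mouse, while no endothelial marker was called. The called interneuron markers did not move one way, since Sst was lower (-0.33, adjusted p = 0.00322) and Vip higher (0.21, adjusted p = 0.0361). Over both housings Vip was the only 1 of the 6 with a positive log2 fold change. None of these markers was at 0 in any library, and their part in the results below was not tested.

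Crebbp was lower in every CBP-ifKO than in every control mouse. In SC its normalized CPM was 73.9, 81.9 and 70.7 in the 3 controls and 50.5, 51.5 and 50.0 in the 3 CBP-ifKOs. In EE it was 72.3, 77.1 and 69.6 in the controls and 44.5, 48.3 and 46.7 in the CBP-ifKOs. The genotypes did not overlap in either housing. Adjusted p values below come from edgeR's quasi-likelihood test with Benjamini-Hochberg adjustment, except where DESeq2 is named. Crebbp fell by 0.58 on the log2 scale in SC (SE 0.06, adjusted p = 0.000542) and by 0.64 in EE (SE 0.06, adjusted p = 0.000407). Over both housings it fell by 34.6% (log2 fold change -0.61, 95% interval -0.71 to -0.52, adjusted p = 3.38e-07). Crebbp passed the threshold of 0.05 under every alternative tried, 17 in each housing and 22 over both.

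Ep300, the other KAT3 gene, did not pass the test in either housing, and its control mice were widely spread. In SC its normalized CPM was 55.8, 83.6 and 64.3 in controls and 77.5, 75.7 and 78.0 in CBP-ifKOs. In EE it was 61.8, 85.3 and 64.9 in controls and 67.6, 80.4 and 73.1 in CBP-ifKOs. Control mouse 2 was the highest of the 6 mice in each housing, so the genotypes overlapped, although every CBP-ifKO lay above control mice 1 and 3. The log2 fold change was 0.18 in SC (SE 0.11, adjusted p = 0.394), 0.07 in EE (SE 0.11, adjusted p = 0.775) and 0.12 over both housings (adjusted p = 0.408). The 95% interval over both housings ran from -4.79% to 24.4%. In SC the call depended on control mouse 2, without which Ep300 rose by 0.36 (adjusted p = 0.00593). In EE it did not pass without control mouse 2 either (0.22, adjusted p = 0.114). Over both housings it did not pass without control mouse 2 of SC alone (0.21, adjusted p = 0.0742) or of EE alone (0.20, adjusted p = 0.0983), and it rose by 0.29 without both (adjusted p = 0.00132), a choice made after seeing the data.

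**Figure D1:**
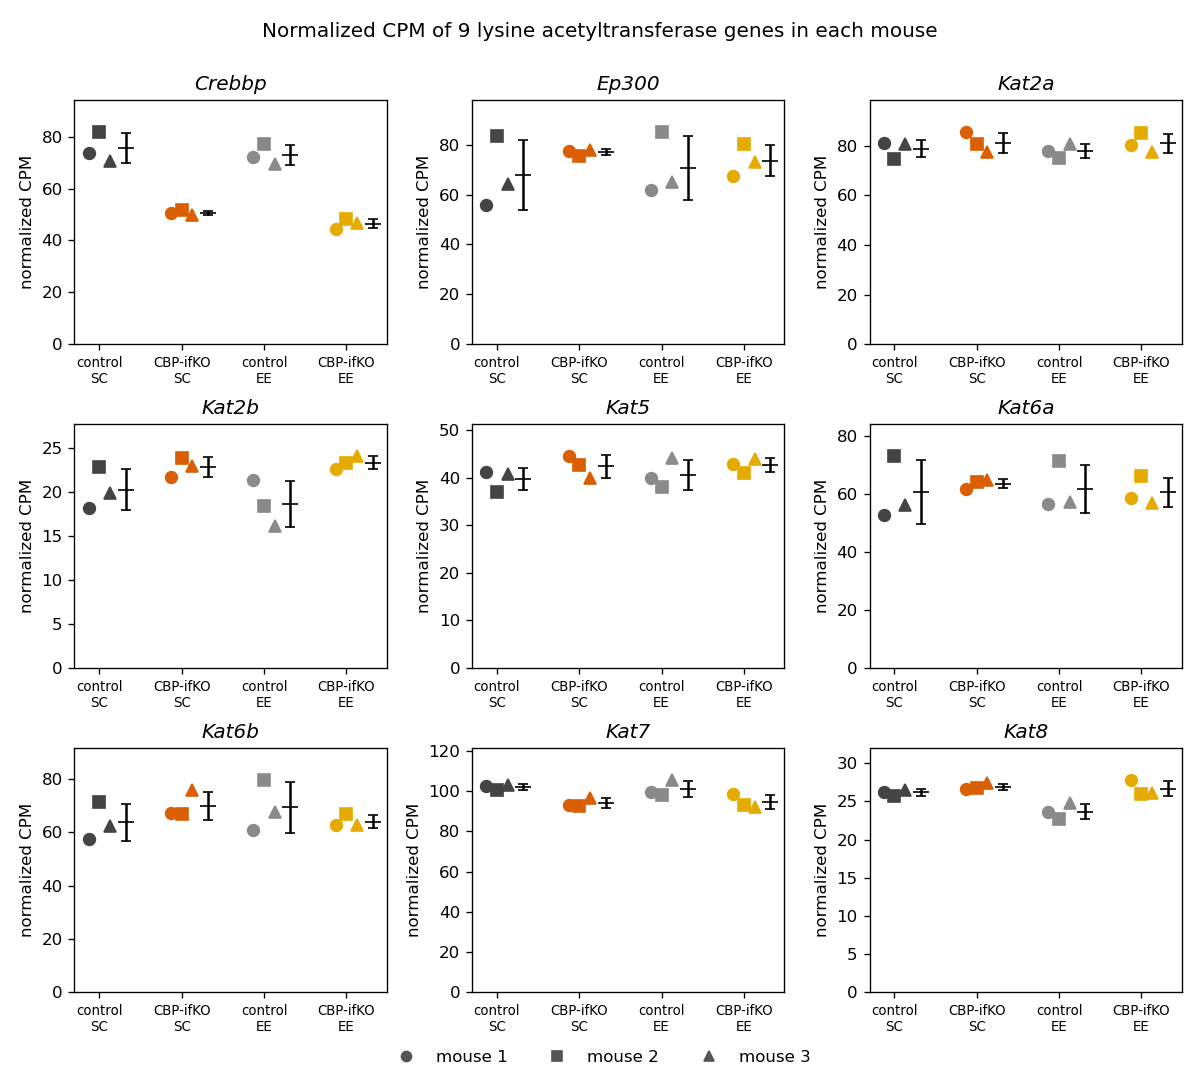
Normalized CPM (y axes, starting at 0) of the 9 acetyltransferase genes in each of the 12 mice, by group (x axes); marker shapes give the mouse number and black bars the mean ± SD of 3 mice. Crebbp is separated between genotypes in both housings, and control mouse 2 is the highest control for Ep300, Kat6a and Kat6b in both.

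Among GCN5 and PCAF, Kat2b rose over both housings, whereas Kat2a did not pass the test. In SC, the normalized CPM of Kat2b was 18.1, 22.8 and 19.8 in controls and 21.7, 23.9 and 22.9 in CBP-ifKOs. In EE it was 21.4, 18.4 and 16.1 in controls and 22.6, 23.3 and 24.1 in CBP-ifKOs. The genotypes overlapped in SC through control mouse 2 and did not overlap in EE. The log2 fold change was 0.17 in SC (SE 0.09, adjusted p = 0.320) and 0.33 in EE (SE 0.10, adjusted p = 0.0884), and neither passed. Over both housings Kat2b was 18.7% higher in CBP-ifKOs (log2 fold change 0.25, 95% interval 0.10 to 0.40, adjusted p = 0.0245). This call held in 17 of 22 alternatives and was lost without control mouse 1 in SC (0.21, adjusted p = 0.0636), without CBP-ifKO mouse 2 in SC (0.23, adjusted p = 0.0618), without control mouse 3 in EE (0.20, adjusted p = 0.0658), without CBP-ifKO mouse 3 in EE (0.24, adjusted p = 0.0566), and with the CBP-ifKO counts halved and all libraries thinned to equal depth (0.20, adjusted p = 0.0890). In EE alone, Kat2b passed with DESeq2 (adjusted p = 0.0482), with library totals (adjusted p = 0.0470), with no filter (adjusted p = 0.0299) and without control mouse 1 (adjusted p = 0.0299).

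Kat2a lay between 74.9 and 81.2 normalized CPM in the 6 control mice and between 77.6 and 85.7 in the 6 CBP-ifKOs, and the genotypes overlapped in both housings. Its log2 fold change was 0.04 in SC (adjusted p = 0.731), 0.06 in EE (adjusted p = 0.617) and 0.05 over both (95% interval -0.04 to 0.14, adjusted p = 0.469).

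None of the 5 MYST genes passed the test of genotype. Kat7 came closest: in SC its normalized CPM was 102, 101 and 103 in controls and 92.9, 92.6 and 96.8 in CBP-ifKOs. In EE it was 99.8, 98.3 and 105.7 in controls and 98.5, 93.0 and 92.4 in CBP-ifKOs. The genotypes were separate in SC and overlapped in EE through CBP-ifKO mouse 1. The log2 fold change of Kat7 was -0.12 in SC (adjusted p = 0.212), -0.09 in EE (adjusted p = 0.456) and -0.11 over both (95% interval -0.18 to -0.03, adjusted p = 0.0542). It passed the threshold over both housings in 6 of 22 alternatives, among them DESeq2 (adjusted p = 0.0377), the halved counts (adjusted p = 0.0461), and the fits without control mouse 2 (adjusted p = 0.0359) or CBP-ifKO mouse 1 (adjusted p = 0.0481) of the EE groups. With library totals in place of TMM the difference of Kat7 was -0.04 (adjusted p = 0.439).

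Kat8, the catalytic subunit of the MSL and NSL complexes, had 26.2, 25.7 and 26.6 normalized CPM in SC controls and 26.6, 26.7 and 27.4 in SC CBP-ifKOs. In EE the values were 23.6, 22.7 and 24.7 in controls and 27.8, 26.0 and 26.1 in CBP-ifKOs. Every CBP-ifKO lay above every control of its housing, by a narrow margin in SC. The log2 fold change was 0.04 in SC (adjusted p = 0.789), 0.18 in EE (adjusted p = 0.205) and 0.11 over both (95% interval 0.01 to 0.20, adjusted p = 0.116), and with library totals it was 0.17 over both (adjusted p = 0.0151).

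Kat6a and Kat6b, which encode the related enzymes MOZ and MORF, overlapped between genotypes in both housings. Kat6a had 53.0, 73.3 and 56.1 normalized CPM in SC controls against 61.8, 64.4 and 64.9 in CBP-ifKOs, and 56.7, 71.4 and 57.5 against 58.7, 66.2 and 57.1 in EE. Kat6b had 57.6, 71.3 and 62.2 against 67.1, 66.7 and 75.9 in SC, and 60.9, 79.7 and 67.6 against 62.6, 66.8 and 62.7 in EE. Control mouse 2 was again the highest control for both genes in both housings. The log2 fold changes over both housings were 0.02 for Kat6a (95% interval -0.14 to 0.18, adjusted p = 0.897) and 0.01 for Kat6b (95% interval -0.13 to 0.15, adjusted p = 0.945). Without control mouse 2 in SC, Kat6a rose by 0.22 in SC (adjusted p = 0.0261), and without the mice numbered 2 of both control groups it rose by 0.16 over both housings (adjusted p = 0.0221). Kat5, which encodes TIP60, lay between 37.0 and 44.0 normalized CPM in controls and between 39.9 and 44.6 in CBP-ifKOs, with a log2 fold change of 0.08 over both housings (95% interval -0.02 to 0.18, adjusted p = 0.299).

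**Figure D2:**
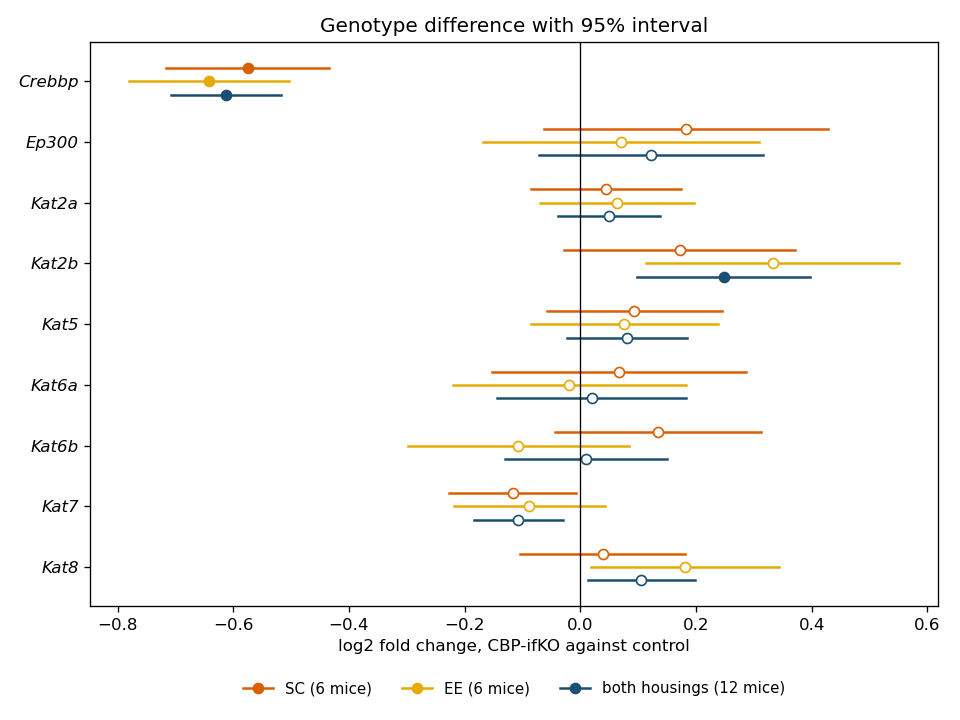
Log2 fold change of CBP-ifKOs against controls (x axis) for each of the 9 genes in SC, in EE and over both housings, with 95% intervals from edgeR; filled points had an adjusted p below 0.05. Crebbp is filled in all 3 comparisons, Kat2b only over both housings, and the other 7 genes are open throughout.

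The calls are given here beside those over all genes. In SC 1 of 9 members was called, Crebbp, where 5.52% of 17532 genes were called (1.51% higher and 4.02% lower). In EE it was again Crebbp alone, where 4.57% of 17625 genes were called (1.03% higher and 3.53% lower). Over both housings 1 of 9 members was higher and 1 lower, where 16.9% of 18251 genes were called (6.64% higher and 10.3% lower). With library totals in place of TMM the split over all genes turned to 607 higher and 480 lower in SC, 524 and 425 in EE, and 2937 and 1275 over both, against 264 and 704, 182 and 623, and 1211 and 1871 with TMM. The genotypes did not overlap for 3 of 9 members in SC (Crebbp, Kat7 and Kat8) and for 3 of 9 in EE (Crebbp, Kat2b and Kat8), beside 25.4% and 24.8% of all genes. The median log2 fold change of the 9 members was 0.05 over both housings, beside 0.00 for all genes tested.

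Compared per length, the order of the levels was led by Kat2a and Kat7 in every group. In RPKM (CPM per kilobase of exon, scaled to the library total), Kat2a was at 22.3 ± 1.05 (SD, n = 3) in SC controls, Kat7 at 18.1 ± 0.333, Kat5 at 11.1 ± 0.680 and Kat8 at 8.90 ± 0.190. None of these overlapped its neighbor in the order, in any of the 4 groups. Below them in SC controls came Kat6a at 6.40 ± 1.13, Crebbp at 5.48 ± 0.394, Ep300 at 4.67 ± 0.973, Kat2b at 4.09 ± 0.469 and Kat6b at 3.72 ± 0.404, each overlapping the next. Crebbp was thus the 6th of 9 in both control groups. In CBP-ifKOs it was the 9th in both housings, at 3.81 ± 0.0367 RPKM in SC and 3.52 ± 0.114 in EE, without overlap with Kat6b above it.

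Within the KAT3 pair, Ep300 exceeded Crebbp per length in all 6 CBP-ifKOs and in 1 of 6 control mice. The ratio of Ep300 to Crebbp per length, which does not depend on the scaling of a library, lay between 0.716 and 0.969 in SC controls and between 1.39 and 1.48 in SC CBP-ifKOs. In EE it lay between 0.811 and 1.05 in controls and between 1.44 and 1.58 in CBP-ifKOs, so the genotypes did not overlap in either housing. On the log2 scale the ratio went from -0.25 ± 0.22 (SD, n = 3) to 0.53 ± 0.05 in SC and from -0.14 ± 0.19 to 0.59 ± 0.07 in EE. Crebbp made up 54.2% ± 3.77 of the KAT3 RPKM in SC controls against 40.9% ± 0.763 in CBP-ifKOs, and 52.4% ± 3.26 against 40.0% ± 1.12 in EE. The fall of Crebbp enters each of these ratios. In SC, mean Crebbp was 3.81 RPKM in CBP-ifKOs against 5.48 in controls, and mean Ep300 was 5.49 against 4.67. In EE these means were 3.52 against 5.25 for Crebbp and 5.30 against 4.82 for Ep300. The sum of both went from 10.2 ± 1.32 to 9.30 ± 0.0842 RPKM in SC, with overlap, and from 10.1 ± 1.02 to 8.82 ± 0.525 in EE, without. With TMM scaling the sum of the KAT3 pair did not overlap in SC either (9.37 to 11.9 in controls against 9.11 to 9.16 in CBP-ifKOs). The sum of the other 7 genes went from 74.6 ± 0.971 to 78.8 ± 0.881 RPKM in SC and from 73.1 ± 1.90 to 78.9 ± 1.32 in EE, without overlap. With TMM scaling that sum of 7 went from 75.9 to 77.4 and from 75.1 to 76.8, and the EE groups overlapped.

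**Figure D3:**
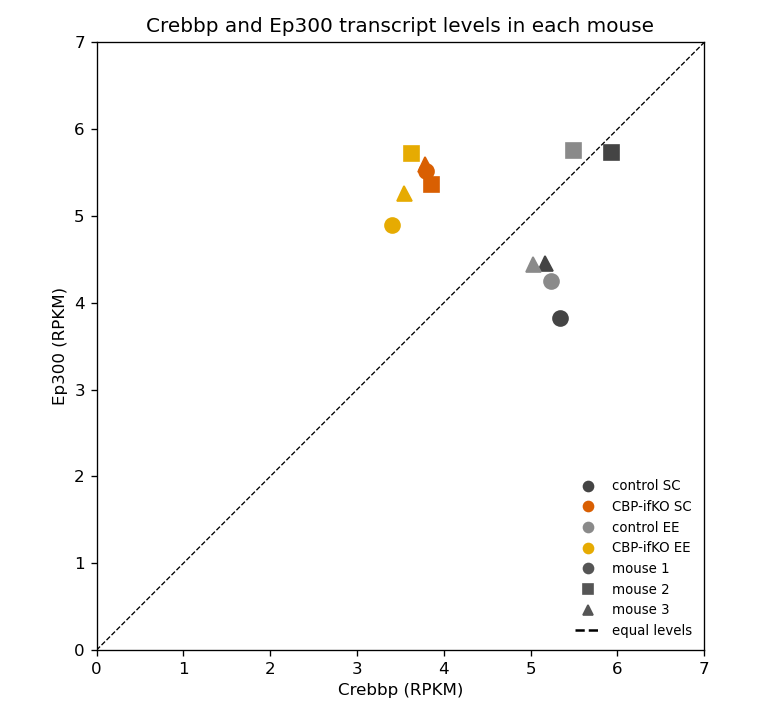
Ep300 (y axis) against Crebbp (x axis) in RPKM, 1 point per mouse and 4 groups; the dashed line marks equal levels. All 6 CBP-ifKOs lie above the line, with ratios from 1.39 to 1.58, and controls lie between 0.716 and 1.05.

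The spread of Ep300 among controls was shared with the other long members, though not only with them. As deviations from the group mean of log2 CPM, Ep300 stood at 0.32 and 0.29 in control mice 2 of SC and EE, Kat6a at 0.28 and 0.21, Kat6b at 0.17 and 0.21, and Crebbp at 0.12 and 0.08. The shorter Kat5 stood at -0.10 in both, but Kat2b, with 4867 bases, stood at 0.18 in SC control mouse 2, above Kat6b and Crebbp, and at -0.01 in EE control mouse 2. The exon lengths in the count table are 14273 bases for Ep300, 9330 for Kat6a, 16826 for Kat6b, 13540 for Crebbp and 3509 for Kat5. Over all genes with a mean log2 CPM above 3, the median deviation of genes of at least 9 kb minus that of genes under 3 kb was 0.19 and 0.20 in these 2 mice, between -0.12 and -0.07 in the other 4 controls, and between -0.03 and 0.05 in the 6 CBP-ifKOs. The part of this difference in the genotype values was not tested beyond an offset for gene length chosen after seeing the data, with which Ep300 was higher by 0.19 in SC (adjusted p = 0.178) and by 0.15 over both housings (adjusted p = 0.116). Within groups, over the 12 mice, Ep300 correlated with Kat6a (r = 0.96), Kat6b (r = 0.90) and Crebbp (r = 0.81), and Kat7 with Kat8 (r = 0.96). The most negative pairs were Crebbp with Kat8 (r = -0.79), Kat5 with Kat6a (r = -0.79) and Crebbp with Kat7 (r = -0.72). In each mouse both genes of a pair were read from the same library.

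**Figure D4:**
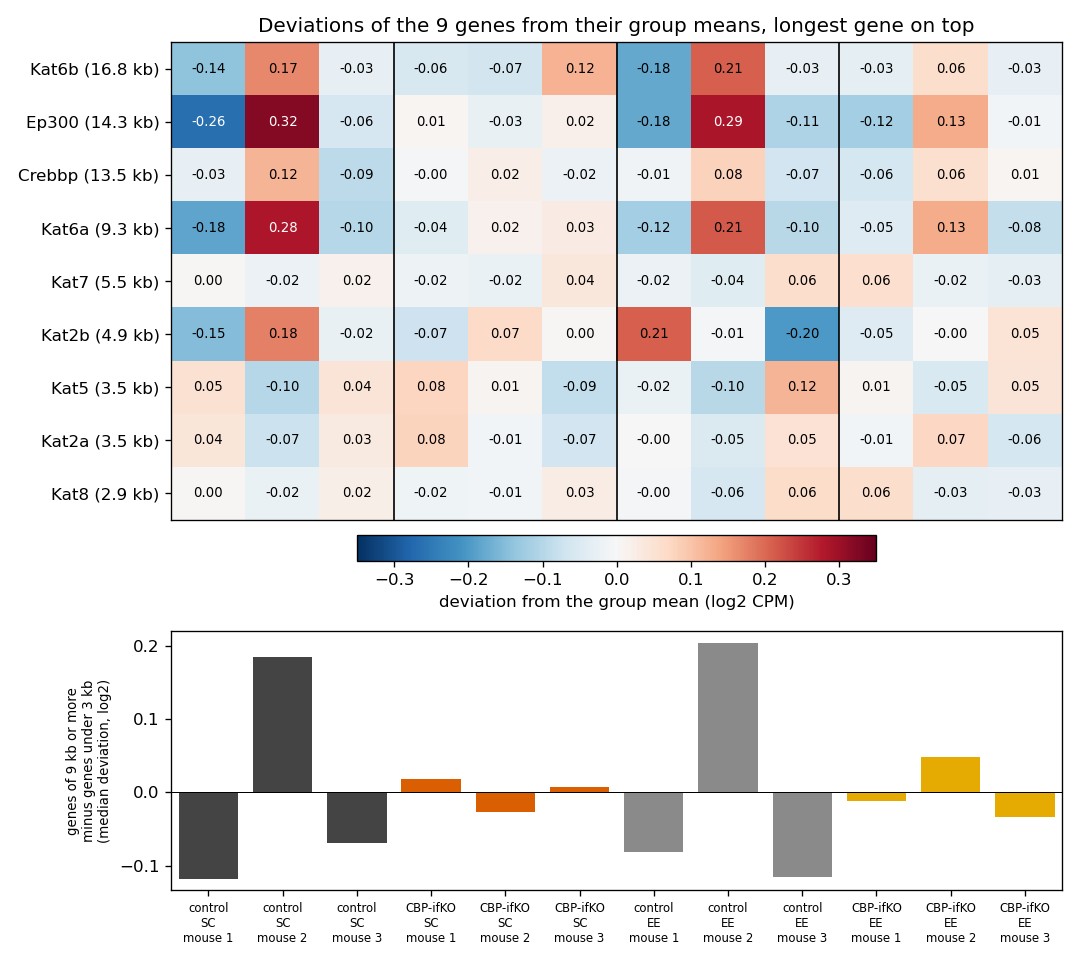
Deviation of each gene from its group mean of log2 CPM in each mouse (color), with genes ordered by exon length, and below it the median deviation of genes of at least 9 kb minus that of genes under 3 kb in log2 units (bars, 1 per mouse). Control mice 2 of both housings have the highest bars, 0.19 and 0.20.

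Among 10762 genes with a mean log2 CPM above 3, the transcripts whose log2 CPM followed Crebbp most closely over the 12 mice were Mturn (r = 0.98), Camkk2 (r = 0.98) and Bcl7a (r = 0.98), and the most opposite were Cgref1, Fam229b and Capn2 (r = -0.97 each). Within groups r was 0.70, 0.47 and 0.37 for the first 3. Those nearest to Ep300 were Ankhd1, Fam120c and Atg2b (r = 0.97 each), and the most opposite were Tmem246 (r = -0.96), Gpr27 (r = -0.95) and Ckmt1 (r = -0.91). Their exon lengths are 9234, 5823 and 13456 bases for the nearest and 3325, 2388 and 2496 for the most opposite. The part of the difference between long and short genes described above in these values was not tested. In each mouse the genes compared were read from the same library, and the correlations with Crebbp also hold the genotype difference. Between Crebbp and Ep300 themselves r was -0.21.

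Housing moved none of the 9 genes past the threshold. In controls, edgeR called 0 of 18251 genes (0%), with 768 at an unadjusted p under 0.05 and 15 called by DESeq2. In CBP-ifKOs it called 2 genes (0.011%), with 1567 at an unadjusted p under 0.05 and 54 called by DESeq2. The largest member difference in controls was that of Kat8, lower in EE (log2 fold change -0.15, 95% interval -0.28 to -0.01, adjusted p = 0.999), with no overlap between the housings. In CBP-ifKOs Crebbp did not overlap between housings, with a log2 fold change of -0.12 (95% interval -0.26 to 0.01, adjusted p = 0.608). These were 1 of 9 members without overlap in each genotype, beside 9.11% of all genes in controls and 15.9% in CBP-ifKOs. The housing difference of Ep300 was 0.06 in controls (95% interval -0.22 to 0.33) and -0.06 in CBP-ifKOs (95% interval -0.33 to 0.21).

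No member had a called interaction between genotype and housing, where edgeR called 0 of 18251 genes (0%), 574 had an unadjusted p under 0.05 and DESeq2 called 0. The interaction of Kat6b was -0.25 (95% interval -0.53 to 0.03, adjusted p = 0.9998), that of Kat2b 0.15 (95% interval -0.15 to 0.45), that of Kat8 0.13 (95% interval -0.05 to 0.32) and that of Crebbp -0.08 (95% interval -0.27 to 0.11). The joint test of housing and interaction called 6 genes (0.0329%), none of them a member, with 1254 at an unadjusted p under 0.05 and 11 by DESeq2.

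**Figure D5:**
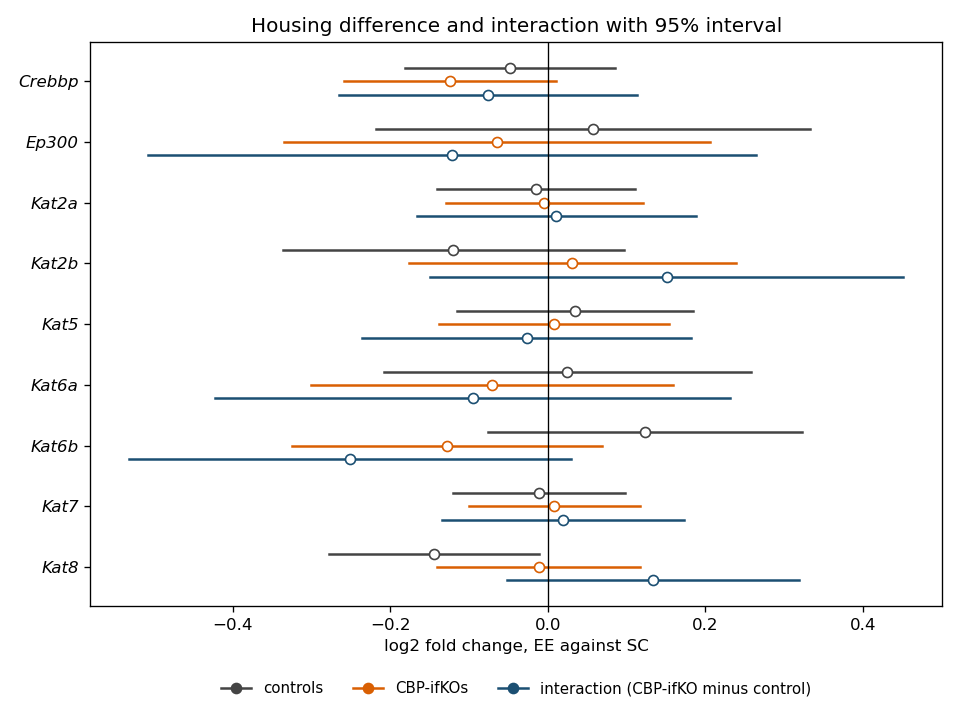
Log2 fold change of EE against SC (x axis) in controls and in CBP-ifKOs, and their difference (interaction), for the 9 genes, with 95% intervals from edgeR. All points are open, since no adjusted p was below 0.05.

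The partners of these enzymes were read from lists of 104 other genes of the pathway. Over both housings 11 were higher and 6 lower, 17 of 104 or 16.3%, near the 16.9% of all genes called. In SC 3 were higher and 3 lower (5.77%), against 5.52% of all genes called (1.51% higher and 4.02% lower). In EE 0 were higher and 3 lower of 103 tested (2.91%), against 4.57% of all genes (1.03% higher and 3.53% lower). Their median log2 fold change over both housings was 0.03. No list gene was called for housing.

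The counts of single lists over both housings stand beside 6.64% of all genes called higher and 10.3% called lower, and with so few genes a list they are a description of the genes named. Among 18 partners of CBP and p300, 0 were higher and 2 lower. These were Mef2d, a MADS-box transcription factor of neurons (log2 fold change -0.39, SE 0.05, adjusted p = 5.35e-05), and Crtc1, a CREB coactivator (-0.34, SE 0.05, adjusted p = 0.000117). Both also fell in SC and in EE on their own, Mef2d by 0.35 and 0.42 and Crtc1 by 0.24 and 0.42 on the log2 scale. The call of Crtc1 in SC held in 11 of 17 alternatives. It was lost with library totals (-0.19, adjusted p = 0.0570) and without control mouse 1 (adjusted p = 0.0807) or 3 (adjusted p = 0.0592) or CBP-ifKO mouse 1 (adjusted p = 0.0574), 2 (adjusted p = 0.101) or 3 (adjusted p = 0.133). In EE both calls held in 16 of 17 alternatives and were lost without CBP-ifKO mouse 3 (adjusted p = 0.0618 for Crtc1 and 0.0679 for Mef2d). Of 24 SAGA and ATAC subunits 2 rose, Supt20 (0.20, adjusted p = 0.00274) and Mbip (0.18, adjusted p = 0.0489).

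Of 17 TIP60 complex subunits, Epc1 (0.14) and Actl6a (0.19) rose and Meaf6 (-0.20) fell. Meaf6 also counts among the 9 MOZ, MORF and HBO1 subunits, where the scaffold gene Brpf3 rose (0.25, adjusted p = 0.00237). Of 12 MSL and NSL subunits, Kansl1 rose (0.16) and Mcrs1 fell (-0.19). Among 16 other acetyltransferases, Atat1, the tubulin acetyltransferase (0.19), Nat10, an RNA cytidine acetyltransferase (0.20), and Mcm3ap (0.14) rose, and Naa50, an N-terminal acetyltransferase (-0.18), fell. Of 4 BET readers Brd2 rose (0.12), and of 10 genes of acetyl-CoA supply Acly, the ATP citrate lyase, rose (0.13) and Acss1, a mitochondrial acetyl-CoA synthetase, fell (-0.25). With library totals in place of TMM, Naa50 (adjusted p = 0.0683), Meaf6 (adjusted p = 0.0523) and Mcrs1 (adjusted p = 0.161) no longer passed. Most alternatives also ended the calls of Actl6a (kept in 7 of 22), Mbip (8 of 22), Mcrs1 (9 of 22) and Mcm3ap (10 of 22). Epc1 and Brd2 kept theirs in 21 of 22 each and Acly in 20 of 22. Acss1, Atat1, Brpf3, Crtc1, Kansl1, Mef2d, Nat10 and Supt20 passed in all 22 alternatives over both housings.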

How the data were processed

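The values are the deposited raw counts per gene, made by the authors from 50-base single-end reads with Trim Galore 0.6.4, STAR 2.6.1 (mm10, mapping quality above 10) and Rsubread on exons of Ensembl release 99. The authors' submission notes also name FastQC 0.11.8 and DESeq2 1.30.1. The 24 runs, 2 per mouse, are merged in the table into 12 mice, each an individual animal. The deposited table also gives each gene's exon length in bases, taken from the annotation, which was used for RPKM.

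Genes were filtered with filterByExpr, scaled with TMM and tested with edgeR 4.0.16 in R 4.3.3 (quasi-likelihood F test, two-sided, Benjamini-Hochberg adjustment over all genes, threshold 0.05). Genotype was tested in 6 SC mice, in 6 EE mice and over all 12, and housing and interaction over all 12, the joint test with an absolute log2 fold change in controls above 0.5. Correlations used log2 CPM with a prior count of 2. The scripts were tested on simulated data. A floor of 3 counts was 0.0801 to 0.112 CPM, which covers counting error only. It was 0.107 to 0.112 in controls and 0.0801 to 0.105 in CBP-ifKOs. The CBP-ifKO values use the deposited totals and would be higher if reads were counted more than once. Figures were drawn with matplotlib 3.10.9.

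The 9 genes and all lists were chosen with earlier results of these data known. Named were the 9 genes in every comparison, up to 4 genes of each list with the smallest p among those called, the 3 most and 3 least correlated genes for Crebbp and Ep300, and cell markers whose sum moved with a group, where called. Excitatory markers, whose sum did not move, were named outside this rule as the check of the tissue, Wfs1 and Neurod6 after their values were seen. Alternatives were DESeq2 1.42.0, other filters, a replicate block, other mice in the fit, halved and thinned counts and leaving out each mouse. Library totals, a length offset and leaving out control mice 2 together were added after seeing the data. Within 1 housing, leaving out both control mice 2 is the same fit as leaving out that housing's control mouse 2. Each tally of 17 alternatives therefore counts this fit in duplicate.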

Additional observations from a re-analysis of the deposited data

How the results depend on the processing

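Crebbp kept its direction and its call over every alternative for genotype. The other members moved around small differences, and for the counts of genes and the signs listed here the cause was not tested. With DESeq2, 1296 genes and 2 members were called in EE, 15 genes for housing in controls, 54 in CBP-ifKOs and 11 jointly. With no filter on low counts, which tests more genes, 1512 genes were called in SC, 1677 genes and 2 members in EE, 145 and 247 for housing in controls and CBP-ifKOs, 110 for the interaction and 114 jointly, and Kat6b stood at -0.0031 over both housings. With other mice in the fit (all 12 for genotype within a housing, the compared 6 for housing within a genotype), 1293 genes were called in EE, 1 for housing in controls and 21 in CBP-ifKOs. With the CBP-ifKO counts halved, 0 genes were called for housing in CBP-ifKOs. With halving and thinning together, 1 member was called over both housings, Crebbp, and 1 gene for housing in controls. Then Kat8 stood at -0.0059 in SC, the housing difference in controls was -0.00072 for Ep300, 0.011 for Kat2a and 0.044 for Kat7, that of Kat7 in CBP-ifKOs was -0.0024, and the interaction was -0.013 for Kat2a and -0.047 for Kat7. Without a fold threshold the joint test called 13 genes. With library totals 2 members were called in EE, Crebbp and Kat2b, beside the genes called there as counted above. Kat6a then stood at 0.047 in EE, and housing in CBP-ifKOs gave 0.0078 for Kat2a and 0.00048 for Kat8. With the length offset 1 gene was called for housing in controls and 8 in CBP-ifKOs. Without the mice numbered 2 of both control groups, 1908 genes and 3 members were called in SC. In SC this is the same fit as without its control mouse 2. Over both housings 5 members were called in this setting, which was chosen after seeing the data. With all 12 mice 16.9% of all genes were called there, and the 5 were not tested against a share. In the same setting 1 gene was called for housing in controls and 18 in CBP-ifKOs, and Kat6a stood at 0.092 in EE. From counts without length, the log2 ratio of Ep300 to Crebbp in CBP-ifKOs was 0.60 in SC and 0.66 in EE, against 0.53 and 0.59 per length.

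Leaving out 1 mouse at a time, 399 to 1908 genes and 1 to 3 members were called in SC, with the highest values without control mouse 2 and the lowest gene count without CBP-ifKO mouse 2. In EE 285 genes (without control mouse 3) to 1016 genes and 1 to 2 members were called. Over both housings 2459 to 3294 genes and 1 to 3 members were called. For housing it was 0 to 5 genes in controls and 0 to 10 in CBP-ifKOs, and jointly 0 to 7. The log2 fold change of genotype ranged from -0.017 to 0.22 for Kat6a in SC, from -0.018 to 0.22 for Ep300 and -0.089 to 0.092 for Kat6a in EE, and from -0.025 to 0.097 for Kat6a and -0.034 to 0.065 for Kat6b over both housings. Housing in controls ranged from -0.091 to 0.014 for Crebbp, -0.099 to 0.23 for Ep300, -0.051 to 0.0095 for Kat2a, -0.028 to 0.081 for Kat5, -0.091 to 0.18 for Kat6a and -0.043 to 0.0095 for Kat7. Housing in CBP-ifKOs ranged from -0.040 to 0.036 for Kat2a, -0.0034 to 0.065 for Kat2b, -0.034 to 0.047 for Kat5, -0.021 to 0.029 for Kat7 and -0.044 to 0.0061 for Kat8. The interaction ranged from -0.30 to 0.036 for Ep300, -0.025 to 0.051 for Kat2a, -0.072 to 0.037 for Kat5, -0.25 to 0.021 for Kat6a and -0.010 to 0.053 for Kat7. The other signs among the members held without any 1 mouse.

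No source ties mice of the same number in different groups to each other. The correlation of same-numbered deviations ran from -0.047 to 0.10 between genotypes in SC and from 0.034 to 0.12 in EE (2 of 3 pairs above 0.1). It ran from 0.034 to 0.30 between the housings in controls (2 of 3 above 0.1, the highest for the mice numbered 2) and from -0.046 to 0.086 in CBP-ifKOs. In no comparison were all 3 pairs above 0.1. Differently numbered pairs ran, in the same order, from -0.15 to 0.076, -0.13 to 0.0063, -0.25 to 0.072 and -0.11 to 0.14. Between genotypes in EE every same-numbered pair thus lay above every other pair. Deviations within a group sum to 0, so same-numbered and other pairs are not independent. With the replicate block 1041 genes were called in SC, 1089 in EE, 3374 over both housings and 17 for housing in CBP-ifKOs, and the members called did not change.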
